A study of Mus musculus with 6 samples.

Results

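Heat shock and chaperone genes were followed by 3′ mRNA sequencing in embryonic submandibular glands (eSMGs) with and without AMD3100. They were chosen by gene symbol alone: the HSP70 and HSP110 genes (Hspa and Hsph1), the HSP90 genes, the small heat shock genes (Hspb), Hspd1 and Hspe1, the J protein genes (Dnaja, Dnajb and Dnajc), the subunits of the chaperonin CCT (Tcp1 and Cct genes) and the regulators Hsf1, Hsf2 and Bag3. The choice took 82 of the 23260 genes counted and left out 3 symbols by name, among them Hspa9 and Dnajc19. Of the 82, 74 had enough reads to be compared, among 13610 genes compared in all. The glands came from ICR mouse embryos on embryonic day 14 and were cultured for 6 h as control (0 µM) or with 50 µM AMD3100, an antagonist of the chemokine receptor CXCR4. Each library was made from a tube of up to 10 pooled eSMGs, with 3 tubes per group, so a value is an average over all cell types of several glands. Fewer cells of a type and less RNA per cell cannot be told apart in such libraries.

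Chaperones bind unfolded or partly folded proteins and keep them from aggregating. HSP70 proteins hold short stretches of a chain in cycles driven by ATP, J proteins bring them their clients and start the cycle, HSP110 proteins and Hspbp1 act on their nucleotide exchange, and HSP90 proteins finish the folding of kinases and receptors. HSP60 in mitochondria and CCT in the cytosol enclose a chain in a ring, and the endoplasmic reticulum (ER) has its own set, led by the HSP70 protein BiP (Hspa5). Under heat or proteotoxic stress the factor HSF1 switches on the inducible members, whereas the unfolded protein response switches on those of the ER.

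Between 9051595 (AMD3100 replicate 3) and 14393031 (AMD3100 replicate 1) reads were counted on genes per library. Levels below are TMM-normalized CPM, that is counts scaled to the size of the library, and a floor of 3 counts corresponded to between 0.173 and 0.368 CPM, which covers counting error only. The chaperone genes took 1.08, 1.11 and 1.56% of all counts in control replicates 1, 2 and 3 and 1.39, 1.21 and 1.62% in AMD3100 replicates 1, 2 and 3. The third library was the highest in each group. Hsp90ab1 alone gave 48988 of 124613, 56274 of 145180 and 79226 of 169334 chaperone counts in control. In AMD3100-treated eSMGs it gave 76146 of 199783, 57726 of 137009 and 74169 of 146929, so much of each share came from a single gene. Rn45s, the ribosomal RNA precursor, took between 16.2 and 32.5% of the counts, and without it the shares were 1.60, 1.53 and 1.95% against 1.66, 1.79 and 2.10%.

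The libraries of replicate 3 stood apart in both groups. Across all genes, the correlation of log2 values between control replicate 3 and AMD3100 replicate 3 was 0.954, above that of every other pair of libraries, where it was between 0.813 and 0.902. Of all genes compared, 44.2% had both replicate 3 libraries above or both below the other 4 libraries, and the same held for 36 of the 74 chaperone genes (48.6%). Skeletal muscle markers went with this split. The summed level of 10 such markers was 286, 318 and 1280 CPM in control and 202, 155 and 1714 CPM in AMD3100-treated eSMGs, with Myog taking the most counts, 8 of the 10 markers highest in the pair, and no marker at 0 in all libraries. The summed level of 7 mesenchyme markers was lower in the pair, at 2840, 2833 and 1341 CPM against 2743, 2828 and 1242 CPM, with Col3a1 taking the most counts. Only 3 of the 7 (Pdgfra, Col1a1 and Col3a1) were below the other 4 libraries in both replicate 3 libraries. Of 9 epithelial markers, 6 were lower in both replicate 3 libraries than in the other 4, among them Epcam (113, 117 and 59.0 CPM in control, 100.5, 106 and 73.4 CPM in AMD3100-treated eSMGs). All 9 epithelial and all 7 mesenchymal markers passed the filter on low counts. The epithelial sum, led by Krt15, was 2213, 2203 and 1473 CPM in control and 2637, 2322 and 3432 CPM in AMD3100-treated eSMGs, so the replicate 3 libraries held both its lowest and its highest value. The sums of erythroid, neuronal and endothelial markers did not set both replicate 3 libraries on one side of the other 4. Summed levels were 7192, 19233 and 11249.5 CPM in control and 6933, 10934 and 11851 CPM in AMD3100-treated eSMGs for 8 erythroid markers (most counts for Hba-a1), 592, 450.1 and 516 against 486, 397 and 732 CPM for 6 neuronal markers (Tubb3), and 29.0, 20.6 and 25.7 against 15.0, 42.5 and 13.1 CPM for 4 endothelial markers (Kdr). The 5 macrophage markers counted summed to 87.8, 68.0 and 135 CPM in control and 76.7, 98.3 and 134 CPM in AMD3100-treated eSMGs (Cx3cr1), above the other 4 libraries in both of replicate 3. By treatment, calls of markers depended on the fit and rested on unadjusted p. No marker of these lists was called between control and AMD3100 in edgeR without the replicate number as a block. With it 4 were called, namely 1 of 9 epithelial, 1 of 7 mesenchymal and 2 of 10 muscle markers, beside 4.39% of all genes. Each of the 4 moved one way in all 3 pairs of libraries of the same number. Myog, a muscle regulator, was at 41.1, 39.99 and 521 CPM in control and 13.9, 9.95 and 485 CPM in AMD3100-treated eSMGs and was lower (log2 fold change with the block -1.16, unadjusted p 0.00442, adjusted p 0.468). Its relative Myod1 (-2.05, unadjusted p 0.0312) and the mesenchymal Twist1 (-0.97, unadjusted p 0.0193) were lower as well, and the epithelial Krt15 was higher (0.62, unadjusted p 0.0240). Of all 10 muscle markers, 7 had a positive and 3 a negative log2 fold change without the block (median 0.34). With the block their median was -0.16. Cdh1, another epithelial marker, had every treated library above every control at under 1.5-fold (log2 fold change 0.55, SE 0.31, unadjusted p 0.0253 with the block). Without the block, all 8 erythroid markers had a negative log2 fold change (median -0.40), and with it the median was -0.29. Hbb-bs was lower in all 3 pairs at under 1.5-fold (-0.40, unadjusted p 0.00352 with the block). Hba-a1 was higher in 2 of the 3 pairs, and Alas2 was at 0.44 with the block. The part of these cell types in the chaperone values was not tested.

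The first comparison asked which chaperone genes differed between AMD3100-treated and control eSMGs after 6 h. Hspb6 was the only one up-regulated and none was down-regulated, by the thresholds in the study's text (fold change over 1.5 and unadjusted p under 0.05) in edgeR's quasi-likelihood test. This was 1 of 74 genes, or 1.35%, where 1.68% of all genes compared passed. Of those 228 genes 54 were up-regulated (0.397%) and 174 down-regulated (1.28%). Adjusted after Benjamini and Hochberg, 0 genes passed in edgeR, chaperone or other, beside the 228 with an unadjusted p under 0.05. DESeq2 gave 5 genes and the fit with the replicate block 3 (0.022%), with 0 chaperone genes in either. The log2 fold changes of the 74 genes ran from -2.16 to 1.96 with a median of 0.078, beside 0.021 over all genes. A positive value was found for 44 of the 74 genes (59.5%, beside 52.2% of all genes), and 57 of the 74 (77.0%, beside 76.9%) lay within 1.5-fold in either direction. The median standard error of a log2 fold change was 0.44 for chaperone genes and 0.50 for all genes.

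With the replicate number as a block, which takes the distance of the replicate 3 libraries out of the spread, 3 chaperone genes passed (4.05%), where 4.39% of all genes did (598 genes). These were Hspb6 and Dnajc21, both up-regulated as were 1.49% of all genes, and Dnajb5, down-regulated as were 2.9%. At any fold change, 8 chaperone genes (10.8%) had an unadjusted p under 0.05 with the block, beside 6.66% of all genes. With replicates 1 and 2 only, 6 passed, namely Dnajb3, Dnajb5, Dnajc2, Dnajc21, Dnajc25 and Hspb6, beside 613 genes in all. Leaving out single libraries moved the count from 0 without AMD3100 replicate 1 to 5 without control replicate 3 (Dnajb3, Dnajc2, Dnajc21, Hsf1 and Hspb6), and to 2 without AMD3100 replicate 3 (Dnajb5 and Hspb6). The count over all genes was 163 without AMD3100 replicate 1, 547 without control replicate 3 and 451 without AMD3100 replicate 3. Each of these refits filtered the genes anew, so the number compared differed, and the share of all genes that passed was not taken. The counts of chaperone genes in these refits are therefore not read as more or fewer than among all genes.

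**Figure D1:**
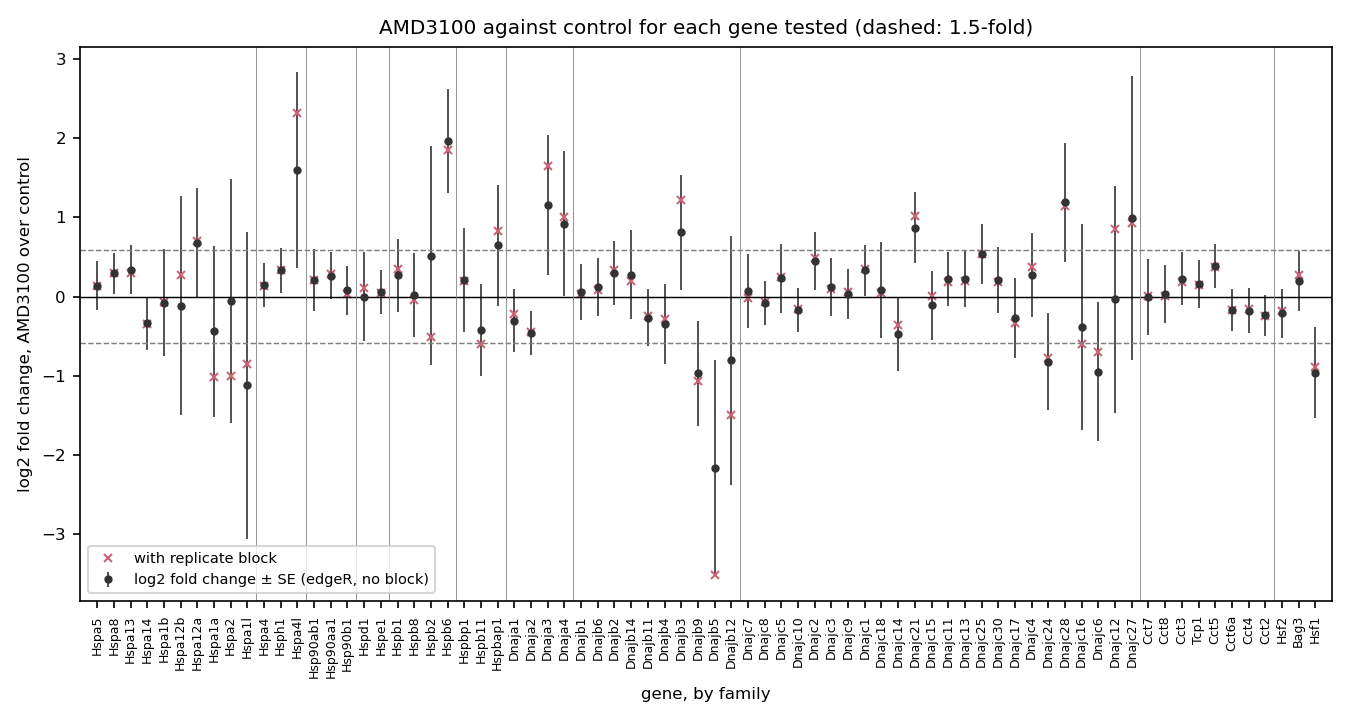
Log2 fold change of AMD3100-treated over control eSMGs (y axis) for the 74 chaperone genes compared (x axis, by family), with bars for ± SE, crosses for the fit with the replicate block and dashed lines at 1.5-fold. Most points lie between the dashed lines, and the long bars belong to genes with few counts.

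In 8 of the 74 genes (10.8%) the 3 values of one group lay wholly above or below those of the other, beside 7.44% of all genes. The AMD3100-treated eSMGs were above in Hspb6, Cct5, Hspa4l and Hspa8 (4 genes, where 3.28% of all genes did so) and below in Dnaja2, Dnajb9, Dnajc24 and Cct2 (4 genes, where 4.17% did). An exact permutation test of a single gene, two-sided, cannot go below 0.1 with 3 against 3 libraries, and it gave that value for each of the 8.

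Hspb6 encodes HSP20, a small heat shock protein known from muscle, and lies on chromosome 7 from 30552535 to 30555443 (GRCm38). Its level was 2.36, 1.82 and 1.99 CPM in control and 9.56, 10.6 and 3.93 CPM in AMD3100-treated eSMGs. All 3 treated libraries were above all 3 controls, and the third was nearest to them. The counts behind these values were 27, 25 and 20 in control and 166, 115 and 32 in treated eSMGs. Its log2 fold change came to 1.96 (SE 0.65), with an unadjusted p of 0.0154 and an adjusted p of 1.0 in edgeR, and with the replicate block it was 1.85 with an unadjusted p of 0.0250. Without AMD3100 replicate 1 the call was lost (log2 fold change 1.81, unadjusted p 0.0658). The AMD3100 library with the lowest Hspb6 level was that of replicate 3, where the muscle markers were highest. This is a single library, and any link of Hspb6 to the muscle markers was not tested. The last 300 bases of Hspb6 lie across from Lin37 on the other strand, and whether counting used the strand is not given in the sources used here. Lin37 stood at 1.23, 4.37 and 8.28 CPM in control and 6.39, 3.13 and 10.1 CPM in AMD3100-treated eSMGs (log2 fold change 0.50, SE 0.79).

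Other small heat shock genes did not pass. Hspb1 encodes HSP27, a stress-inducible protein that also acts on actin filaments, and was at 271, 266 and 92.3 CPM in control and 359.9, 237 and 161 CPM in AMD3100-treated eSMGs. Its lowest library in each group was the third, and the groups overlapped (log2 fold change 0.27, SE 0.47). The value was -0.087 without control replicate 3, -0.079 without AMD3100 replicate 1 and 0.50 without AMD3100 replicate 3. Of its simulated 3′ reads, 81.8% were shared with another place in the genome. Hspb8, which works with Bag3 in clearing misfolded proteins, went the other way along the replicates, with 63.7, 58.7 and 147 CPM in control and 57.6, 53.6 and 162 CPM in AMD3100-treated eSMGs. Its log2 fold change of 0.018 (SE 0.53) was -0.14 with replicates 1 and 2 only, 0.58 without control replicate 3 and -0.71 without AMD3100 replicate 3. Hspb2, a small heat shock gene of muscle, was at 1.93, 1.46 and 12.8 CPM in control and 1.32, 0.277 and 21.6 CPM in treated eSMGs, high in both replicate 3 libraries as the muscle markers were (log2 fold change 0.52, SE 1.38). Hspb3 and Hspb7, also known from muscle, had too few reads to be compared. Hspb3 was counted in the replicate 3 libraries alone, with 23 reads in control and 22 in AMD3100-treated eSMGs, and Hspb7 had 2, 2 and 5 reads against 1, 1 and 9. Hspb11, also chosen by its symbol, was kept apart from the list of small heat shock genes (log2 fold change -0.42, SE 0.58). Of the 4 small heat shock genes of that list compared, all had a positive log2 fold change, with a median of 0.39. With the replicate block 2 of the 4 turned negative (Hspb2 at -0.50 and Hspb8 at -0.045) and the median was 0.15. It was 0.10 with limma-voom, 0.0014 with replicates 1 and 2 only, 1.26 without control replicate 3 and -0.10 without AMD3100 replicate 3.

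Hsf1, the master regulator of the heat shock response, and Hsf2, its relative in development, were not called in either direction. Hsf1 was at 14.0, 16.3 and 5.09 CPM in control and 7.26, 7.47 and 3.44 CPM in AMD3100-treated eSMGs. Each treated library was below the control of its number, but control replicate 3 lay below AMD3100 replicates 1 and 2, so the groups overlapped. The log2 fold change was -0.96 (SE 0.58, unadjusted p 0.131 in edgeR), and without control replicate 3 it was -1.32 with an unadjusted p of 0.0351, past both thresholds. Without AMD3100 replicate 3 it was -0.69 (unadjusted p 0.285 in edgeR). With single libraries left out it ran from -1.32 to -0.65, and Hsf1 passed in 1 of 16 alternative fits. Hsf2 was at 74.5, 44.2 and 48.3 CPM against 41.7, 47.5 and 55.3 CPM, with control replicate 1 above the rest. Bag3, a heat-inducible partner of HSP70 that hands clients to autophagy, was at 17.6, 24.8 and 41.6 CPM in control and 33.3, 27.5 and 35.4 CPM in AMD3100-treated eSMGs, where the treated values lay inside the range of the controls.

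The inducible HSP70 genes Hspa1a and Hspa1b, which HSF1 drives in stressed cells, were counted at low levels in both groups. They lie 10120 bases apart on chromosome 17 (Hspa1b from 34956429 to 34959238 and Hspa1a from 34969359 to 34972156, GRCm38). Their RefSeq promoter windows, from 250 bases before to 50 after the start site, are identical at 296 of 300 bases. The stretch below is shown because it carries the recognition units of HSF1 that both copies share, GAANNTTC, in capitals, 96 bases before the start site on the minus strand (chr17:34972229-34972284 and chr17:34959311-34959366).
Hspa1a: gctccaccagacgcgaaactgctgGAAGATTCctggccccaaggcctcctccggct
Hspa1b: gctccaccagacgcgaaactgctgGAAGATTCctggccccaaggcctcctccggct
Hspa1a was at 2.71, 2.62 and 5.48 CPM in control and 4.09, 0.184 and 3.68 CPM in AMD3100-treated eSMGs, from counts of 31, 36 and 55 against 71, 2 and 30. Hspa1b was at 7.62, 12.3 and 3.29 CPM in control and 13.0, 3.87 and 5.03 CPM in treated eSMGs. Within each gene the groups overlapped, and AMD3100 replicate 2 was the lowest library for Hspa1a and control replicate 3 for Hspa1b. The log2 fold changes were -0.44 (SE 1.07) and -0.079 (SE 0.67). With single libraries left out both turned, Hspa1a running from -0.90 without AMD3100 replicate 1 to 0.11 without AMD3100 replicate 2 and Hspa1b from -0.80 without AMD3100 replicate 1 to 0.43 without control replicate 2. None of the reads simulated from the last 300 bases of either gene was shared with another place, so the copies could be told apart there.

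Hspa8, the constitutive HSP70 of the cytosol (HSC70), was at 208, 206 and 232 CPM in control and 259, 285 and 247 CPM in AMD3100-treated eSMGs. Every treated library was above every control, by a log2 fold change of 0.29 (SE 0.26, unadjusted p 0.287 in edgeR and 0.0519 with the replicate block), which is under 1.5-fold. Of the reads simulated from its 3′ end, 90.9% were shared with another place in the genome, so its level is uncertain. Among the HSP110 genes, Hspa4 was at 195, 217 and 227 CPM in control and 234, 282 and 189 CPM in AMD3100-treated eSMGs, with the highest and the lowest library both in the treated group. Hsph1 was at 58.8, 56.2 and 73.6 CPM against 74.7, 94.8 and 67.9 CPM, with the third control inside the treated range. Hspa4l had few reads, and control replicate 1 had none. It stood at 0, 2.62 and 2.89 CPM in control and 3.74, 8.57 and 4.42 CPM in treated eSMGs, all treated libraries above all controls, with an SE of 1.23 on a log2 fold change of 1.60. The other HSP70 genes (Hspa2, Hspa12a, Hspa12b, Hspa13, Hspa14 and Hspa1l) did not pass either.

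In RefSeq's windows of GRCm38.p6, which held 68 of the 82 chaperone genes in 87 windows, TTCNNGAA was found in 10 windows (11.5%) on either strand, beside 8.52% of all 32851 windows. GAANNTTC was found in 17 (19.5%), beside 7.86%. TTCNNGAA continued by NNTTC, which contains both of these motifs, was found in 6 windows (6.90%), those of Hspd1, Hspe1, Dnajb6 and Hsph1, beside 0.603%. A match describes the sequence and is not a site shown to be used.

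**Figure D2:**
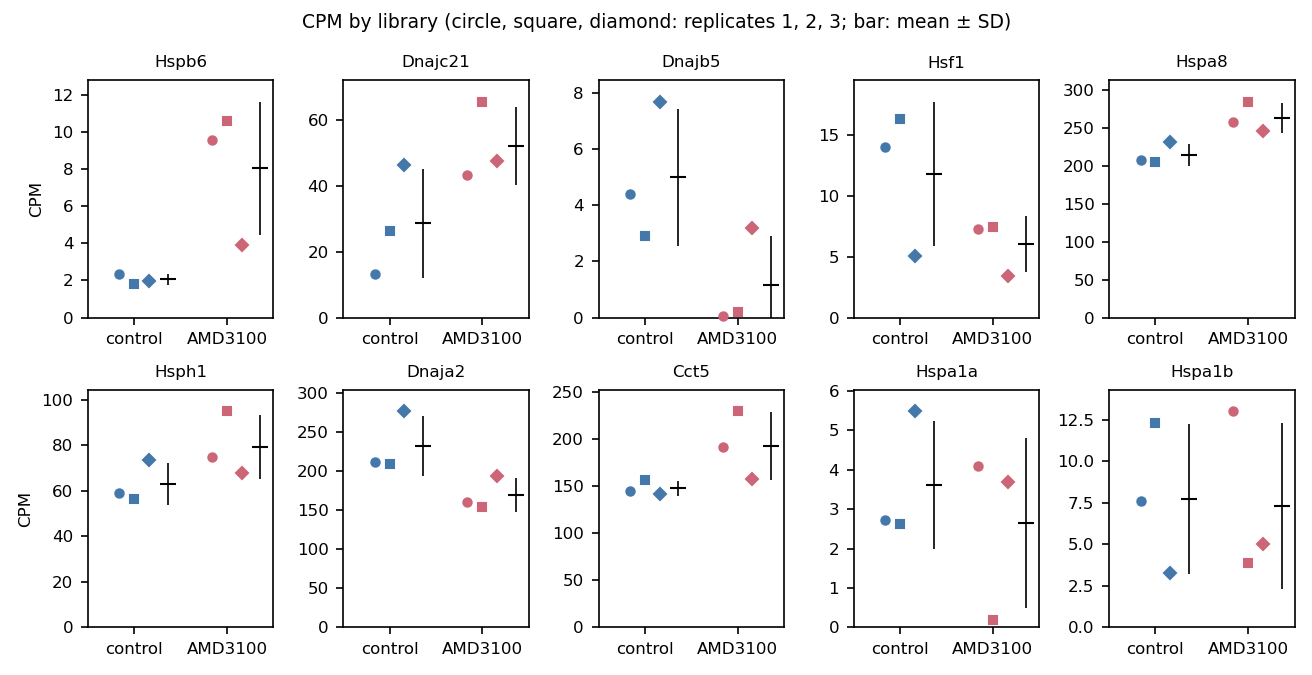
CPM (y axis, from 0) of 10 chaperone genes in each library, with circles, squares and diamonds for replicates 1, 2 and 3 of control and AMD3100-treated eSMGs and a bar for mean ± SD. Hspb6 and Hspa8 have all 3 treated libraries above the controls, Dnaja2 has all 3 below, and in Hspa1a and Hspa1b the groups overlap.

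HSP90 was counted mostly from Hsp90ab1, the constitutive cytosolic form. Its level was 4289, 4099 and 7901 CPM in control and 4386, 5321 and 9108 CPM in AMD3100-treated eSMGs. The third library was far above the other 2 in each group, and every treated library was above the control of its number (log2 fold change 0.21, SE 0.39, unadjusted p 0.610 in edgeR). With the replicate block the unadjusted p was 0.0364 at under 1.5-fold. The log2 fold change was 0.20 with replicates 1 and 2 only, 0.59 without control replicate 3 and -0.18 without AMD3100 replicate 3. Of its simulated 3′ reads, 45.5% were shared with another place. Hsp90aa1, the inducible form, was at 527, 492 and 771 CPM in control and 677, 658 and 811 CPM in treated eSMGs, again above in each pair of the same number, with a log2 fold change of 0.26 (SE 0.30) and an unadjusted p of 0.0340 with the block. Its log2 fold change was 0.50 without control replicate 3 and 0.15 without AMD3100 replicate 3. The sum over the 3 HSP90 genes was 6276 ± 2279 CPM in control and 7251 ± 2519 CPM in AMD3100-treated eSMGs (SD, n = 3). It was higher with AMD3100 in each pair of the same number, at 5327 against 5068 CPM, 6324 against 4856 CPM and 10102 against 8905 CPM.

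J proteins made up the largest family, with 4 Dnaja, 10 Dnajb and 24 Dnajc genes compared, and none passed in edgeR with all libraries and no block. Dnaja2, a cytosolic partner of HSC70, was at 212, 209 and 277 CPM in control and 161, 154 and 194 CPM in AMD3100-treated eSMGs. All treated libraries were below all controls, at a log2 fold change of -0.45 (SE 0.28, unadjusted p 0.137 in edgeR). Under the replicate block its unadjusted p was 0.00566, but the fold change stayed under 1.5. Dnaja1, a relative of Dnaja2 in the cytosol, was at 168, 189 and 404 CPM against 183, 167 and 267 CPM, with both replicate 3 libraries highest. Its log2 fold change of -0.30 (SE 0.40) was -0.036 with replicates 1 and 2 only, 0.21 without control replicate 3 and -0.55 without AMD3100 replicate 3. Dnajb1, the heat-inducible HSP40, was at 61.9, 47.3 and 81.7 CPM in control and 63.3, 44.0 and 91.2 CPM in treated eSMGs, where the groups overlapped and the log2 fold change was 0.057 (SE 0.36). It was 0.29 without control replicate 3 and -0.26 without AMD3100 replicate 3.

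Dnajc21, a J protein of 60S ribosome assembly on chromosome 15 (10446763 to 10470568, GRCm38), was at 13.4, 26.2 and 46.3 CPM in control and 43.3, 65.5 and 47.6 CPM in AMD3100-treated eSMGs. The controls were spread widely, and the third of them lay inside the treated range. Its log2 fold change was 0.87 (SE 0.45, unadjusted p 0.0856) in edgeR and 1.02 with the replicate block (unadjusted p 0.00953, adjusted p 0.578). With single libraries left out it ran from 0.52 without control replicate 1 to 1.40 without control replicate 3. Dnajc2, which binds ribosomes and helps nascent chains, was at 36.9, 39.0 and 73.1 CPM in control and 48.8, 72.3 and 82.2 CPM in treated eSMGs. Every treated library of Dnajc2 was above the control of its number, with a log2 fold change of 0.45 (SE 0.37, unadjusted p 0.0348 with the block). Its partner on the ribosome, the HSP70 protein encoded by Hspa14, was at 27.8, 38.9 and 46.9 CPM in control and 39.1, 23.9 and 26.6 CPM in treated eSMGs, with groups that overlapped.

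Dnajb5, a cytosolic J protein, was at 4.38, 2.91 and 7.68 CPM in control and 0.0576, 0.184 and 3.19 CPM in AMD3100-treated eSMGs, from counts of 50, 40 and 77 against 1, 2 and 26. AMD3100 replicates 1 and 2 were at or below the floor of 3 counts, while the third was above control replicate 2. The log2 fold change was -2.16 (SE 1.36, unadjusted p 0.147) in edgeR and -3.52 with the replicate block (unadjusted p 0.0284), values that depend on how near-zero counts are handled. Dnajc24, which takes part in diphthamide synthesis, was at 4.03, 7.43 and 6.88 CPM against 3.74, 2.95 and 3.68 CPM, with all treated libraries below the controls (log2 fold change -0.82, SE 0.61). The J proteins with the widest spread over the 6 libraries at 10 CPM or more, Dnajb14, Dnajc18 and Dnajc21, did not spread alike. Dnajc18 was at 22.6, 24.9 and 71.2 CPM in control and 23.4, 24.1 and 78.1 CPM in treated eSMGs, and Dnajb14, of the ER membrane, was at 29.2, 28.3 and 10.6 CPM against 31.9, 40.6 and 10.1 CPM. Both replicate 3 libraries were the highest for the former and the lowest for the latter, and Dnajc21 followed neither pattern. The log2 fold change of Dnajc18, 0.080 (SE 0.60), was -0.0065 with replicates 1 and 2 only, 0.83 without control replicate 3 and -0.75 without AMD3100 replicate 3.

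Other J proteins with specialised roles showed the same kinds of spread. Dnajc5, the cysteine string protein of secretory vesicles, was at 91.3, 83.6 and 189 CPM in control and 103, 108 and 217 CPM in AMD3100-treated eSMGs, highest in both replicate 3 libraries and above the control of its number in each pair (log2 fold change 0.23, SE 0.43). Dnajc8, a nuclear protein linked to splicing, varied little, with 179, 204 and 145 CPM in control and 158, 188 and 155 CPM in treated eSMGs. Dnajb6, which holds back aggregation, was at 55.9, 45.3 and 79.6 CPM against 48.3, 52.3 and 95.5 CPM, again highest in the pair of replicate 3, and is among the genes whose simulated 3′ reads were mostly shared with another place. Dnaja3, a J protein of mitochondria, had few reads, and control replicate 1 stood far below the rest at 0.350, 6.19 and 7.78 CPM in control and 11.1, 14.1 and 6.75 CPM in treated eSMGs (log2 fold change 1.16, SE 0.88). Dnajc10 (ERdj5), a reductase of the ER, was at 109, 134 and 91.8 CPM against 89.5, 109 and 101 CPM, with groups that overlapped.

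**Figure D3:**
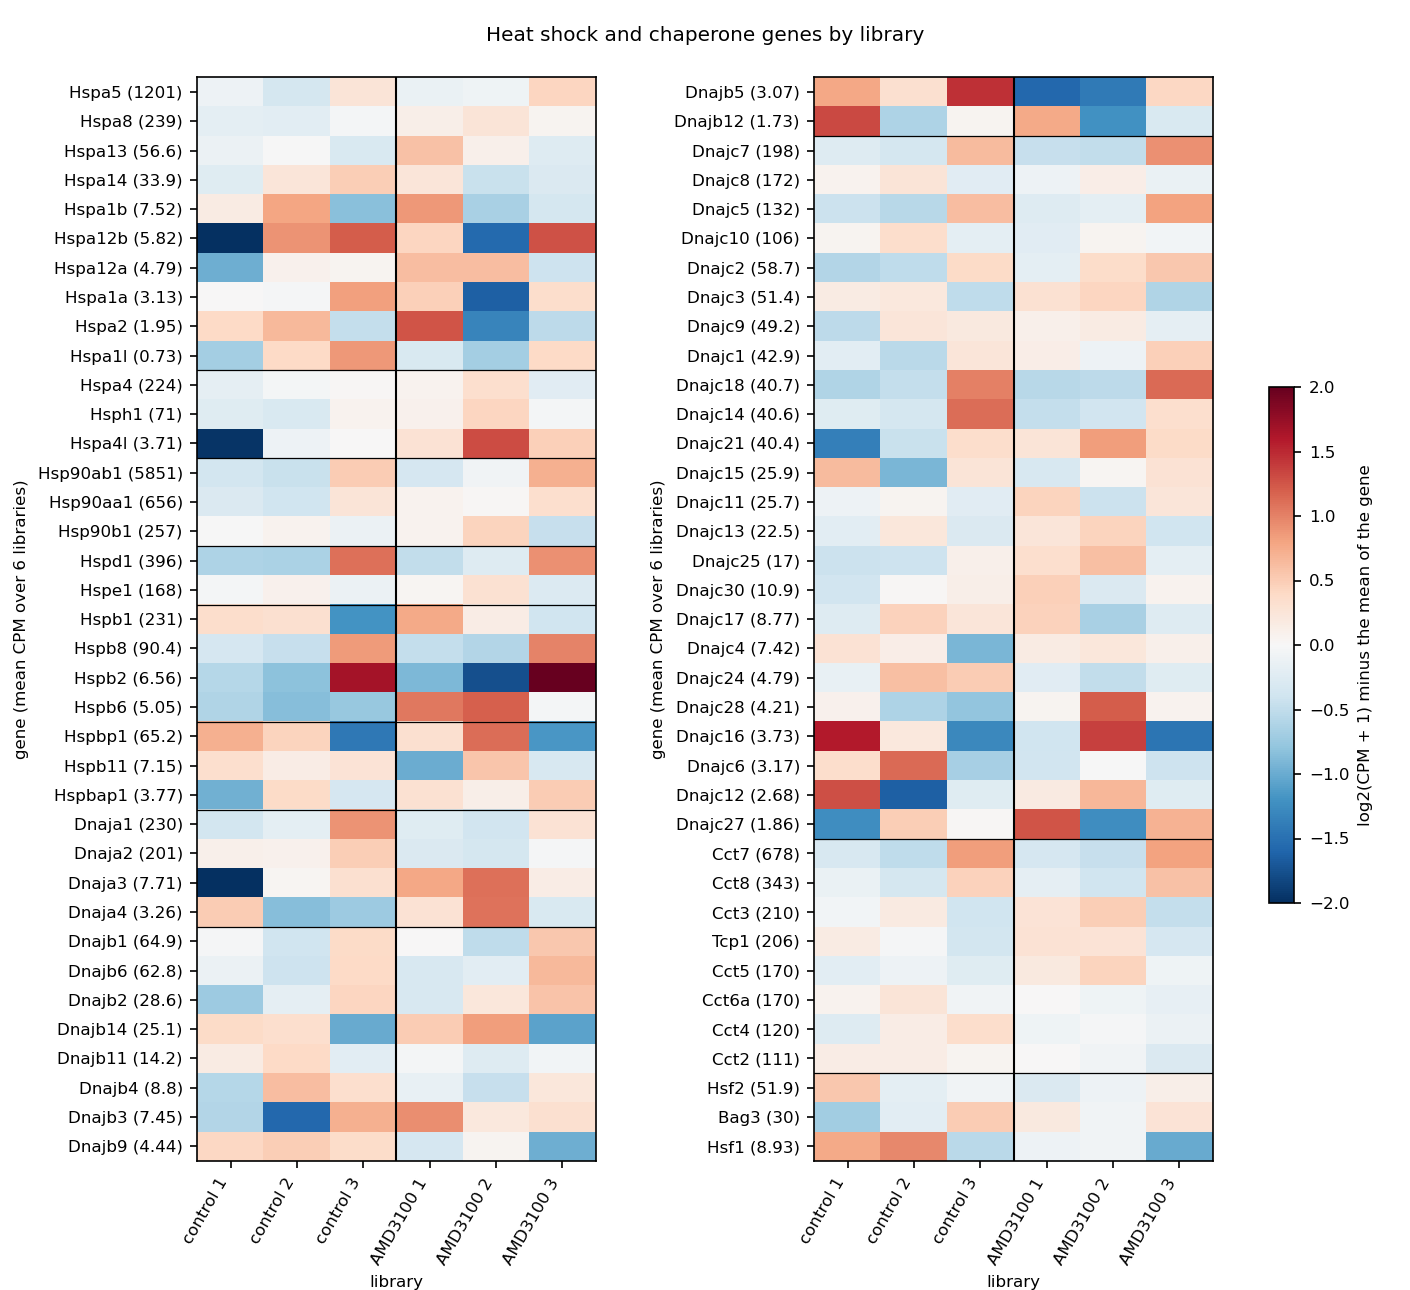
Log2(CPM + 1) of each of the 74 chaperone genes compared (rows, by family, with the mean CPM over the 6 libraries in brackets) minus the mean of the gene, in the 6 libraries (columns), with a colour scale cut at -2 and 2. Few rows change colour at the line between control and AMD3100, whereas the third column of each group often differs from its neighbours.

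In the ER, Hspa5 (BiP) was at 1098, 922 and 1412 CPM in control and 1082, 1109 and 1585 CPM in those treated with AMD3100, with overlapping groups and a log2 fold change of 0.14 (SE 0.31), which was 0.33 without control replicate 3 and -0.077 without AMD3100 replicate 3. Hsp90b1, the HSP90 of the ER (GRP94), was at 252, 266 and 233 CPM against 264, 345 and 183 CPM, where the highest and the lowest library were both treated. The promoter windows of Hspa5, Hsp90b1 and Dnajc3 (3 of 87, or 3.45%, beside 0.119% of all windows) contained the ER stress response element, searched on both strands as CCAAT and CCACG with 9 bases between them. CCAAT alone was in 39.1% of the chaperone windows and 37.4% of all windows. The stretch of Hspa5 (plus strand, chr2:34772007-34772061), 46 bases before its start site, is shown with the element in capitals because these genes are its textbook targets.
Hspa5: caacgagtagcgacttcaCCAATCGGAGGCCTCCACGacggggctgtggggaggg
Dnajc3, which also restrains the kinase PERK, was at 55.6, 57.3 and 34.6 CPM in control and 61.7, 66.7 and 32.2 CPM in AMD3100-treated eSMGs, and both replicate 3 libraries were lowest. Dnajb9 (ERdj4), a J protein of the ER that the factor XBP1 induces, was at 5.87, 6.19 and 5.58 CPM in control and 3.05, 4.33 and 1.60 CPM in treated eSMGs. All treated libraries were below all controls, at low counts (log2 fold change -0.97, SE 0.66, unadjusted p 0.180 in edgeR). Dnajb11 (ERdj3) was at 15.8, 18.7 and 12.0 CPM against 13.6, 11.6 and 13.5 CPM. Over the list of 8 ER chaperones none passed, 5 had a positive and 3 a negative log2 fold change, and the median was 0.10, beside 0.021 over all genes. That median was -0.11 without AMD3100 replicate 2 and -0.023 without control replicate 3.

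Hspd1 (HSP60) and Hspe1 (HSP10) encode the barrel and the lid of the mitochondrial chaperonin and are transcribed away from each other from chromosome 1. The RefSeq start sites are at 55087932, with another at 55088243, for Hspd1 on the minus strand and at 55088148 for Hspe1 on the plus strand (GRCm38), so that the upstream regions overlap. A stretch of this shared region (chr1:55088053-55088082, plus strand) is shown because it carries a run of HSF1 units (capitals), 71 bases before the Hspe1 start, and it lies inside the longer model of Hspd1.
Hspe1: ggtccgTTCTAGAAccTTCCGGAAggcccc
Along the replicates these genes did not follow each other. Hspd1 was at 225, 222 and 743 CPM in control and 247, 290.3 and 651 CPM in AMD3100-treated eSMGs, with both replicate 3 libraries above all others. Hspe1 was at 162, 178 and 154 CPM in control and 171, 205 and 138 CPM in treated eSMGs, with both replicate 3 libraries below the rest. By treatment neither gene differed beyond its spread, with log2 fold changes of -0.0019 (SE 0.56) and 0.059 (SE 0.28). That of Hspd1 was 0.26 with replicates 1 and 2 only, 0.84 without control replicate 3 and -0.58 without AMD3100 replicate 3. Of the reads simulated from the 3′ ends, 100% for Hspd1 and 81.8% for Hspe1 were shared with another place in the genome, so that the levels of both are uncertain. Of 6 mitochondrial chaperones compared, none passed (4 positive and 2 negative log2 fold changes, median 0.13).

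The chaperonin CCT consists of rings of 8 different subunits that fold actin and tubulin, and the counts of its subunits did not keep the same proportions from library to library. Cct7 was at 496, 438 and 1107 CPM in control and 491, 452 and 1087 CPM in AMD3100-treated eSMGs. Cct8 was at 303, 259.7 and 456 CPM against 293, 251 and 496 CPM. Both were highest in the replicate 3 libraries of each group, and the log2 fold change of Cct7, -0.0080 (SE 0.48), was 0.0085 with replicates 1 and 2 only, 0.55 without control replicate 3 and -0.55 without AMD3100 replicate 3. Cct3 was at 197, 231 and 154 CPM in control and 246, 286 and 147 CPM in treated eSMGs. Tcp1, the first subunit, was at 226, 200.1 and 157 CPM against 247, 244 and 161 CPM. Both of these were lowest in the replicate 3 libraries. The remaining subunits (Cct2, Cct4, Cct5 and Cct6a) had at least 1 replicate 3 library inside the range of the other 4.

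By treatment, Cct5 was the CCT subunit with the lowest p. It was at 145, 157 and 141 CPM in control and 192, 229.5 and 157 CPM in AMD3100-treated eSMGs, with every treated library above every control, at under 1.5-fold (log2 fold change 0.39, SE 0.28, unadjusted p 0.195 in edgeR and 0.0249 with the block). Cct2 was at 122, 123 and 115 CPM against 111, 105 and 89.8 CPM, with every treated library below every control (log2 fold change -0.24, SE 0.26). Cct4 was at 99.0, 132 and 153 CPM in control and 112, 117 and 109 CPM in treated eSMGs, and Cct6a at 176, 201 and 161 CPM against 169, 158 and 151 CPM, with overlapping groups in both. Of the 8 subunits compared, none passed, 4 had a positive and 4 a negative log2 fold change, and their sum with Cct6b was 1983 ± 399.8 CPM in control and 2034 ± 315 CPM in AMD3100-treated eSMGs (SD, n = 3). Cct6b, a form known from testis, had 20, 0 and 3 reads in AMD3100-treated eSMGs and none in control, and was not compared.

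**Figure D4:**
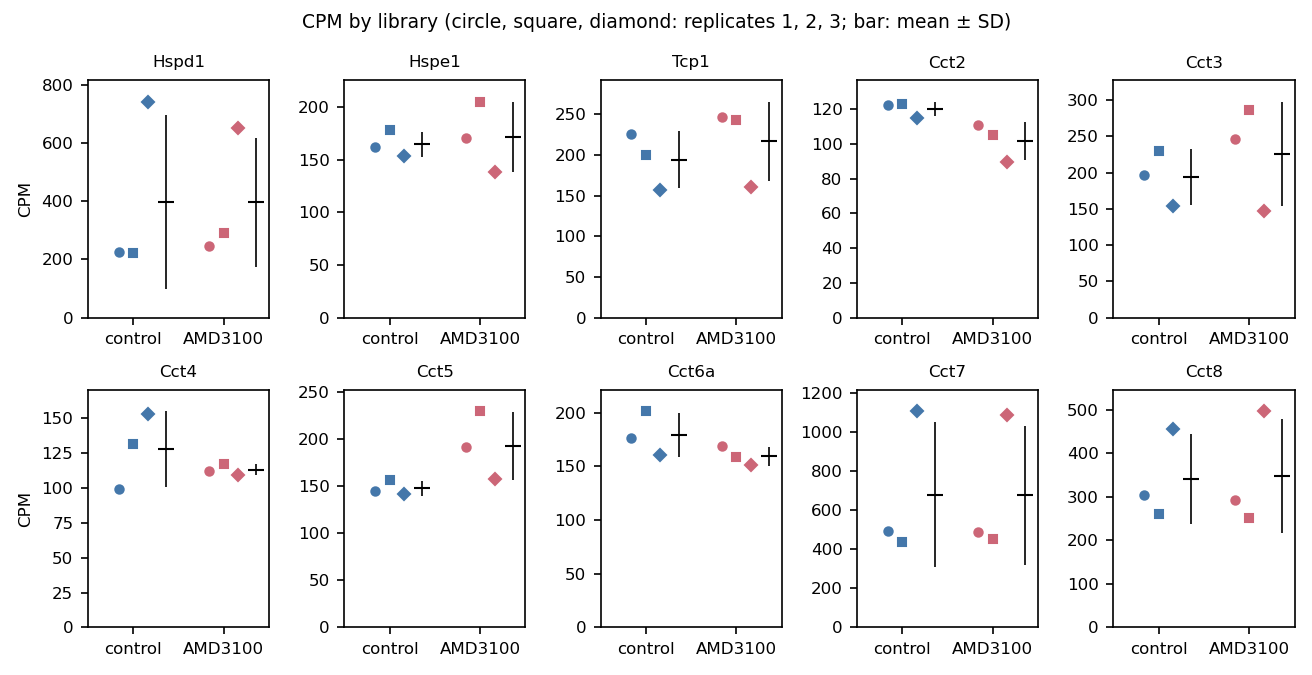
CPM (y axis, from 0) of the mitochondrial chaperonin genes Hspd1 and Hspe1 and of the 8 CCT subunits in each library, with circles, squares and diamonds for replicates 1, 2 and 3 and a bar for mean ± SD. The diamonds are high in both groups for Hspd1, Cct7 and Cct8 and low for Tcp1 and Cct3.

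Along the replicate number, 21 chaperone genes (28.4%, beside 23.1% of all genes) were above the other 4 libraries in both replicate 3 libraries and 15 (20.3%, beside 21.1%) were below. The median ratio of the pair over the other 4 libraries was 0.995 for chaperone genes and 0.977 for all genes. Replicate 3 is not a group of the study, and no test was made of it. Hspbp1, an exchange factor of HSP70, had the lowest ratio among chaperone genes with a mean of at least 10 CPM, with 89.0, 73.3 and 19.2 CPM in control and 67.7, 118 and 23.5 CPM in AMD3100-treated eSMGs. Dnajc7, a J protein that also binds HSP90, was at 153, 143 and 284 CPM against 133, 130.4 and 347 CPM, high in the pair.

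**Figure D5:**
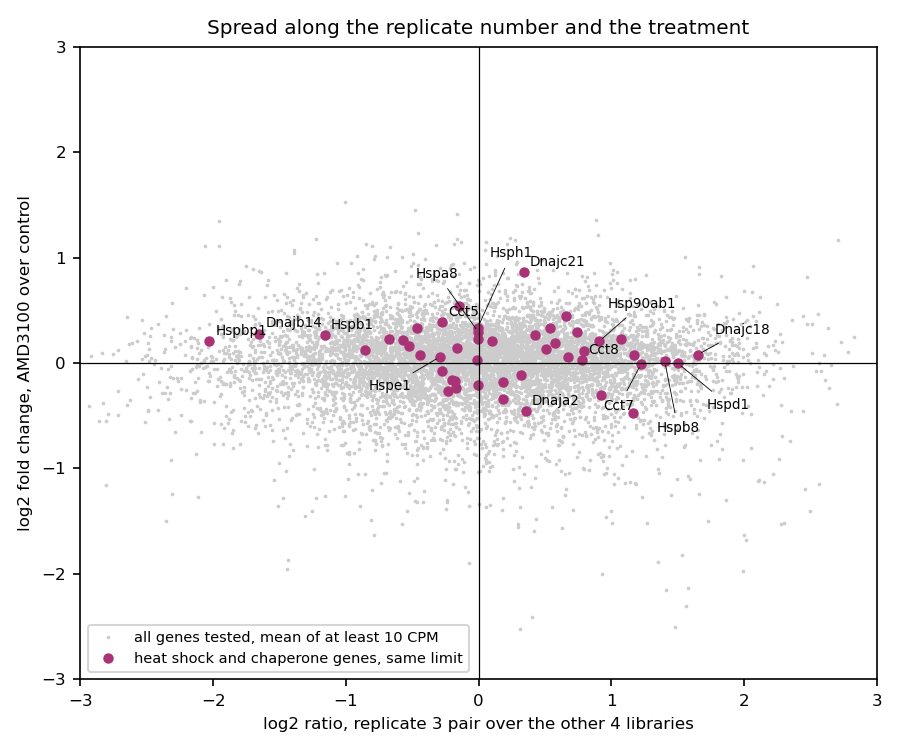
Log2 ratio of the mean CPM of the 2 replicate 3 libraries over that of the other 4 (x axis) against the log2 fold change of AMD3100-treated over control eSMGs (y axis), for genes with a mean of at least 10 CPM, with chaperone genes in purple and all genes compared in grey. Chaperone genes are spread farther along x than along y.

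Partners of the chaperones, outside the symbols chosen, were read from lists. Of 13 HSP90 co-chaperones none passed (5 positive and 8 negative log2 fold changes). The median was -0.045, and it was 0.19 without control replicate 3, 0.061 without AMD3100 replicate 1 and -0.15 without AMD3100 replicate 3. Fkbp4, an immunophilin of steroid receptor complexes, had the most counts among them and was at 372, 438 and 176 CPM in control and 427, 382 and 163 CPM in AMD3100-treated eSMGs. Of 11 HSP70 co-chaperones none passed (6 positive and 5 negative, median 0.070). With single libraries left out the median was negative in 5 of 6 fits, from -0.37 without AMD3100 replicate 3 to -0.017 without control replicate 3, and it was 0.12 without AMD3100 replicate 2, where Bag2 was called. St13 (HIP), which stabilises the bound state of HSP70, was at 253, 209 and 585 CPM against 222, 272 and 622 CPM. Both replicate 3 libraries were low for Fkbp4 and high for St13, and neither gene separated the groups. Of 9 genes of prefoldin and the helpers of CCT, 1 was down-regulated (4 positive and 5 negative, median -0.14). This was Pdcl3, which binds CCT, at 11.9, 14.1 and 9.67 CPM in control and 6.68, 3.78 and 6.75 CPM in treated eSMGs, with no overlap (log2 fold change -1.05, SE 0.46, unadjusted p 0.0499 and adjusted p 1.0 in edgeR). Pfdn5, the prefoldin subunit with the most counts, was at 157, 151 and 418 CPM against 166, 175 and 507 CPM.

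Of 14 genes of the unfolded protein response compared, Xbp1 was down-regulated and the others did not pass (6 positive and 8 negative log2 fold changes, median -0.10, and 0.039 without AMD3100 replicate 1). Xbp1 encodes the factor that drives ER chaperone genes once its mRNA has been spliced by IRE1, and a 3′ count does not tell the spliced from the unspliced form. It was at 47.2, 39.3 and 50.5 CPM in control and 34.6, 22.9 and 27.9 CPM in AMD3100-treated eSMGs, with every treated library below every control. The log2 fold change was -0.68 (SE 0.30, unadjusted p 0.0488 and adjusted p 1.0 in edgeR, unadjusted p 0.00895 with the block). Both Pdcl3 and Xbp1 lay close to the threshold. Pdcl3 lost its call without each of the 6 libraries in turn, with unadjusted p between 0.0585 and 0.151. Its log2 fold change was then between -1.19 and -0.82. Xbp1 kept its call only without AMD3100 replicate 1, and without the others its unadjusted p was between 0.0631 and 0.154. Over the 6 fits its log2 fold change was between -0.85 and -0.54. With the block, Atf6, an ER stress sensor, also passed, at 15.1, 11.1 and 21.4 CPM in control and 5.82, 5.71 and 14.2 CPM in treated eSMGs (log2 fold change -0.97, unadjusted p 0.0252). Pdia4 went the other way, with every treated library above every control at under 1.5-fold (log2 fold change 0.49, SE 0.29, unadjusted p 0.0163 with the block). Manf was lower in each pair of the same number, also at under 1.5-fold (-0.57 with the block, unadjusted p 0.00659). Calr, the calcium-binding lectin chaperone of the ER, was at 636, 579 and 543 CPM against 617, 812 and 691 CPM (log2 fold change 0.27, SE 0.27).

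Of 9 immediate early genes, which respond within minutes to handling and growth factors, none passed (4 positive and 5 negative log2 fold changes, median -0.36). The median was -0.19 with replicates 1 and 2 only, and with single libraries left out it ran from -0.44 without AMD3100 replicate 3 to 0.036 without control replicate 3. Jun was at 101, 72.3 and 80.8 CPM in control and 78.2, 97.8 and 89.3 CPM in AMD3100-treated eSMGs. With the block Egr1 and Ier2 passed, both down-regulated. Egr1 was at 25.8, 12.5 and 46.6 CPM against 12.6, 8.20 and 40.8 CPM (log2 fold change -0.61, unadjusted p 0.0495 with the block). Ier2 was at 15.5, 14.9 and 26.3 CPM against 9.91, 4.70 and 18.2 CPM (log2 fold change -0.93, unadjusted p 0.0274 with the block). Of 14 genes listed as cytosolic and heat-inducible, none passed with or without the block (10 positive and 4 negative log2 fold changes, median 0.17). This list also holds the constitutive Hspa8 and Hsp90ab1, both among the positive values, while the inducible Hspa1a and Hspa1b were among the negative.

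Which reads could be assigned to a gene differed among the 82. Reads of 50 bases simulated from the last 300 bases of each transcript were not shared with another place for 66 of the 82 genes, and were shared at over 50% for 6, namely Hspd1, Hspa8, Hspe1, Hspb1, Dnajc30 and Dnajb6. A shared read is not always an identical match, since another place could be worse by up to a single mismatch. The 3′ ends of 14 genes lie across from a gene on the other strand, among them Cct8 (Usp16), Dnaja1 (Smu1), Dnajc7 (Cnp), Dnajc14 (Ormdl2) and Tcp1 (Acat3). Usp16 was at 33.7, 35.2 and 29.5 CPM in control and 34.9, 35.1 and 24.9 CPM in AMD3100-treated eSMGs and did not follow the split of Cct8 by replicate. Smu1 was at 62.4, 53.8 and 87.7 CPM against 68.3, 88.4 and 85.1 CPM. Ormdl2, by contrast, was at 31.2, 24.9 and 81.5 CPM in control and 25.5, 22.7 and 44.7 CPM in treated eSMGs, close in each library to Dnajc14 at 31.3, 28.9 and 81.7 CPM and 26.5, 28.2 and 47.3 CPM. Acat3 was at 179, 149 and 139.5 CPM against 203, 193 and 138 CPM and was lowest in replicate 3 of both groups, as Tcp1 was. Whether reads were counted for both genes of such a pair was not tested.

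Besides Hspb3, Hspb7 and Cct6b, 5 chaperone genes had too few reads to be compared. Dnajb7 and Dnajb8 had none in any library, Dnajb13 had 2 in AMD3100 replicate 3, Dnajc22 had 3 in control replicate 3, and Hspb9 had 2 each in AMD3100 replicates 1 and 3.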

How the data were processed

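The 6 libraries of E14 eSMGs (3 control, 3 with AMD3100) were grouped by their labels. For every library, the deposited file lists raw counts of 50 bp single reads by gene symbol, which the authors had not normalized. The submitters' processing notes name Bowtie2, edgeR and mm10, while the counting program, annotation and strand setting are not given in the sources used here. Of 23282 lines, 22 that repeated a symbol with identical counts were left out. Totals ranged from 9051595 to 14393031 counts, and PCR reads are not independent molecules.

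AMD3100-treated and control eSMGs were compared with edgeR 4.0.16 in R 4.3.3 (TMM, filterByExpr, glmQLFit and glmQLFTest, condition only, Benjamini-Hochberg adjustment over 13610 genes). A call needed a fold change over 1.5 and an unadjusted p under 0.05, the thresholds in the study's text. Figure captions of the study give 2-fold instead, which was run as an alternative. The paper describes its results in general as from independent experiments in triplicate. Nothing says that the tubes came from separate litters, so p-values measure the spread between tubes. The labels give both groups replicate numbers 1 to 3, and the deviations of same-numbered libraries from their group means correlated at 0.185, 0.171 and 0.584. Each was over 0.1, so the numbers were taken to pair the libraries. Replicates 1 and 2 correlated about as well across numbers (0.146 and 0.198), and the other pairings, each with 1 replicate 3 library, were between -0.351 and -0.290, so only the pair of replicate 3 stood out.

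The chaperone genes, the gene lists and the marker lists were chosen with earlier results of these data known. Genes were named when they were called, when their groups did not overlap (the 5 lowest p per direction), by role, for the widest spread (5 genes with a mean of at least 10 CPM), or, from the partner lists, when called or with the most counts. All other genes (Dnajb5, Dnajc2, Dnajc5, Dnajc7, Hspa14, Hspb2, Atf6, Pdia4, Manf, Egr1 and Ier2 among them) were named after their values were seen.

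Alternatives were upper quartile normalization, DESeq2 1.42.0, limma-voom (limma 3.58.1) after quantile normalization, a minimum of 10 counts in each library or no minimum, the replicate block, edgeR's robust estimation, 2-fold as the threshold, the procedure of the study (quantile-normalized log2(count + 1), unlogged means for fold changes, an equal-variance test), Rn45s left out, replicates 1 and 2 only, and each library left out. For the procedure of the study, the paper names quantile normalization, unlogging and an equal-variance test, and the log2(count + 1) was chosen here. The fits were also run on simulated data, whose outcome is not given here, so no result rests on it. Coordinates and promoters are those of RefSeq on GRCm38.p6. For 3′ ends, reads of 50 bases every 25 bases of the last 300 were aligned with minimap2 2.31-r1302 to NCBIM37, which is not the build of the authors. All 82 symbols were matched there. A read was taken as shared when another place aligned as well as the best place or worse by no more than the score of a single mismatch.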

Additional observations from a re-analysis of the deposited data

How the results depend on the processing

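The median log2 fold change of the chaperone genes kept its sign under every alternative run (0.078, range 0.061 to 0.221). Over all genes it was 0.021 in edgeR with all libraries and no block. Positive and negative values of chaperone genes numbered 44 and 30 in that fit and 46 and 28 with the replicate block. They were nearly even without AMD3100 replicate 3 (38 and 36) and with replicates 1 and 2 only (38 and 35). The count of all genes called, 228, rose to 598 with the replicate block (203 up-regulated and 395 down-regulated), to 429 with the procedure of the study (172 and 257) and to 613 with replicates 1 and 2 only (267 and 346). It was 325 with DESeq2 and 312 with limma-voom (92 and 220). Leaving out each library in turn gave 163 to 547 genes, and without control replicate 3 the up-regulated genes outnumbered the down-regulated (316 and 231). The count of chaperone genes called, 1, was 3 with limma-voom and 3 with the replicate block (Dnajb5, Dnajc21 and Hspb6 in each), 2 with the procedure of the study (Hspb6 and Hspb9, the latter at 2 reads in a library at most) and 6 with replicates 1 and 2 only. Leaving out each library gave 0 to 5, and shares of the genes compared were not taken in these refits. Hspb6 passed under each alternative run except without AMD3100 replicate 1. The replicate block added Dnajc21 and Dnajb5 among chaperone genes, Atf6, Egr1 and Ier2 among the partners and Krt15, Twist1, Myog and Myod1 among the cell type markers, and removed no call of these genes. Pdcl3 and Xbp1 each passed in 8 of 16 fits. Both lost the call with no minimum of counts (unadjusted p 0.0782 and 0.0648 in edgeR) and with replicates 1 and 2 only. Xbp1 also lost it with limma-voom (unadjusted p 0.0538). With each library left out in turn, the median log2 fold change kept its sign for the heat-inducible (0.048 to 0.32), mitochondrial (0.050 to 0.29) and prefoldin lists (-0.34 to -0.039) and turned at least once for the other 7 lists. The cause of these shifts was not tested. Of the 44 genes named by rule, the log2 fold change turned sign for 24 with a single library left out, among them Bag3, Hsf2, Hspa4, Hsp90b1, Hspe1, Cct8, Dnajb14, Dnajc3, Hspbp1, Fkbp4, St13, Pfdn5 and Jun. Of the 74 chaperone genes, 11 had a standard error of the log2 fold change over 1, Hspa1a, Hspa4l, Hspb2 and Dnajb5 among them.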

Other observations

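Hspa9, the HSP70 protein of mitochondria, is outside the symbols chosen above. It stood at 191, 201 and 181 CPM in control and 161, 148 and 168 CPM in AMD3100-treated eSMGs, with every treated library below every control (log2 fold change -0.27, SE 0.26, unadjusted p 0.327 in edgeR). Cryab, a small heat shock gene of lens and muscle whose symbol falls outside as well, was at 12.6, 8.52 and 19.0 CPM in control and 8.93, 5.44 and 24.2 CPM in treated eSMGs, with both replicate 3 libraries highest. Both genes were named after their values were seen.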
